A study of Mus musculus with 19 samples.

Results

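The genes described here are 36 genes of the interstitial matrix: fibrillar and fibril-associated collagens, collagen VI, a few collagens of basement membrane zones, small proteoglycans, collagen-processing enzymes and 2 fibroblast surface proteins. Collagen IV was not among them. Each gene was taken from the probe sets that carried its symbol and no other, and the set with the highest mean was used where there were several. In this way 35 of the 36 were measured, and all 35 were among the 14231 genes tested, although 7 of them lay under the intensity filter on 1 to 3 arrays. Loxl2, a collagen cross-linking enzyme, had only probe sets shared with another symbol and was not used.

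The samples were 19 mammary tumours of MMTV-NIC mice, a model whose mammary epithelium carries activated ErbB2 and Cre recombinase under control of the MMTV promoter. There were 5 control tumours (NIC WT, intact integrin genes), 4 Itgb1 knockout tumours (NIC itgb1 fl/fl), 4 Itgb3 knockout tumours (NIC itgb3 fl/fl) and 6 tumours labelled double knockout (NIC itgb1 fl/fl itgb3 fl/fl). Total RNA came from whole, flash frozen tumours taken at end burden, so each array measured epithelium and stroma together, and the Cre is directed to the epithelium and not to the fibroblasts that make most of these products. Fewer cells of a type and less RNA per cell cannot be told apart in such samples. The labels do not say whether the tumours came from separate animals. A p-value here therefore sets a group difference against the variation among tumours only, part of which may be technical.

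The targeted genes were compared first. Itgb1 was at a log2 intensity of 10.16 ± 0.19 (SD, n = 5) in controls, 8.70 ± 0.29 (n = 4) in Itgb1 knockout tumours, 10.04 ± 0.20 (n = 4) in Itgb3 knockout tumours and 8.32 ± 0.48 (n = 6) in the tumours labelled double knockout. For Itgb3 the levels were 8.12 ± 0.25, 8.24 ± 0.51, 7.01 ± 0.48 and 8.13 ± 0.39 in the same order. Itgb3 was therefore not lower in the tumours labelled double knockout than in controls, which goes against that label, and these tumours are named by their label throughout. Array medians lay between 4.32 and 4.48. Precision depends on the number of arrays and on the spread of each gene within groups. The medians differed by group, from 4.32 to 4.34 in the tumours labelled double knockout and from 4.41 to 4.48 in Itgb3 knockout tumours. Upper quartiles went the other way, from 6.38 to 6.42 and from 6.35 to 6.36. The part of this in the differences below was not tested. All 14 epithelial markers, among them the keratin Krt18, passed the intensity filter. Of the basal markers, Krt14, Trp63 and Krt15 stayed under it.

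Fibrillar collagens I, III, V and XI assemble into the cross-banded fibres that give connective tissue its tensile strength. Fibroblasts secrete them as procollagens, which are folded with the chaperone Serpinh1, hydroxylated by Plod enzymes, trimmed with the help of Pcolce and cross-linked by lysyl oxidases. Fibril-associated collagens and small leucine-rich proteoglycans such as decorin coat the fibres and set their diameter and spacing. In mammary tumours this matrix surrounds the epithelial nests, and its stiffness and alignment are known to accompany progression.

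The promoters of 4 genes are shown. Col1a2 is the reference for the fibrillar collagens, and Col15a1, Col8a1 and Col6a3 passed the test below. Col12a1 and Col14a1 also passed but had no promoter entry. No link between these sequences and the levels was tested. The sequences are the 250 bases before the annotated start (RefSeq, GRCm38.p6), written in the direction of the gene, in lower case. Capitals mark matches, on either strand, to CCAAT (the CCAAT box), to GGGCGG (the core of an Sp1 site) and to TATAAA (the TATA box), which were the motifs searched and do not overlap one another. The windows are chr6:4505368-4505617 (plus strand) for Col1a2, chr4:47207762-47208011 (plus strand) for Col15a1, chr16:57754738-57754987 (minus strand) for Col8a1 and chr1:90843972-90844221 (minus strand) for Col6a3.
Col1a2: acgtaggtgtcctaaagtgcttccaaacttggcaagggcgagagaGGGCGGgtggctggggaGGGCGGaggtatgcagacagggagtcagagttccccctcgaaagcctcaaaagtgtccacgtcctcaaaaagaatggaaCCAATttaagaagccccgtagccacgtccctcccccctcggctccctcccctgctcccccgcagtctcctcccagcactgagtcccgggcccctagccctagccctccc
Col15a1: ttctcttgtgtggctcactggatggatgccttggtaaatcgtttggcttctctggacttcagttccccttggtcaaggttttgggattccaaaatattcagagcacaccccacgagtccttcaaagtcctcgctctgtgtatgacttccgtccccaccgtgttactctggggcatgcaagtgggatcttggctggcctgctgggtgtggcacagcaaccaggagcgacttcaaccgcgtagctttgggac
Col8a1: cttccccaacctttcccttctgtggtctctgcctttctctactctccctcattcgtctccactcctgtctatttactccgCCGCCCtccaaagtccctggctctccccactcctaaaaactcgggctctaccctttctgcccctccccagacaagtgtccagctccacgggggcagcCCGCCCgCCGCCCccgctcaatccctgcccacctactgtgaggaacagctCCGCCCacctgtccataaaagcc
Col6a3: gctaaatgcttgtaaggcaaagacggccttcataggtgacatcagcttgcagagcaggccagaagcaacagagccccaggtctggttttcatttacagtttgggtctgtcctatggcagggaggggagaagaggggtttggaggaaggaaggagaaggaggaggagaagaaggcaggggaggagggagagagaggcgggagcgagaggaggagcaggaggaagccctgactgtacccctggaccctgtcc
The Col1a2 window held 1 CCAAT and 2 GGGCGG matches and the Col8a1 window 4 GGGCGG matches, while the Col15a1 and Col6a3 windows held none of the 3 motifs. A promoter entry was found for 24 of the 36 genes. GGGCGG was present in 61.5% of their 26 windows and in 32.7% of all 32851 windows of that length, CCAAT in 26.9% and 33.8%, and TATAAA in 15.4% and 12.4%. No motif was common to the 3 windows of genes that passed.

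Against controls, none of the 35 genes passed in any knockout group at an adjusted p of 0.05 (limma, Benjamini-Hochberg adjustment over all genes tested). In Itgb1 knockout tumours 29 of 35 differences were above 0, with a median log2 difference of 0.23 against 0.02 over all genes tested, and the share of all genes called was 0.00703%. In Itgb3 knockout tumours 28 of 35 were below 0, with a median of -0.34 against -0.01, and 0% of all genes were called. In the tumours labelled double knockout 29 of 35 were above 0, with a median of 0.42 against 0.03, and 0.386% of all genes were called. At an unadjusted p under 0.05 the numbers were 0, 0 and 13 of the 35, against 691, 874 and 2398 of all genes. The labelled double knockout median was 0.28 without its replicate 2. The Itgb3 knockout median rested on a single tumour, since it was -0.01 without replicate 2, with 20 of 35 differences below 0.

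The tumours labelled double knockout and the Itgb3 knockout tumours differed most. Col15a1, Col8a1, Col6a3, Col12a1 and Col14a1 were higher in the former, which is 5 of 35 genes (14.3%) against 2.38% of all genes called higher and 2.87% called in either direction. None was lower, and 31 of 35 differences were above 0, with a median of 0.73 against 0.03 over all genes; without Itgb3 knockout replicate 2 the median was 0.36, with 30 of 35 above 0. At an unadjusted p under 0.05 there were 19 of 35 (54.3%) against 21.1% of all genes. The 5 that passed are 3 fibril-associated or multiplexin collagens of 5 measured, 1 network collagen of 4 and 1 collagen VI chain of 3. Itgb3 knockout replicate 2 was the lowest of all tumours for each of these 5 genes, and their differences and folds given below include it. The call was not stable to the choice of tumours: 0 genes passed without Itgb3 knockout replicate 2 or without replicate 4, 1 without Itgb3 knockout replicate 1 or without labelled double knockout replicate 1 or 2, 3 without labelled double knockout replicate 3, and 14 without labelled double knockout replicate 5. It also moved with the processing, to 1 gene (Col15a1) when only the groups compared were fitted, 11 with array weights and 13 with arrays centred on their medians.

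**Figure D1:**
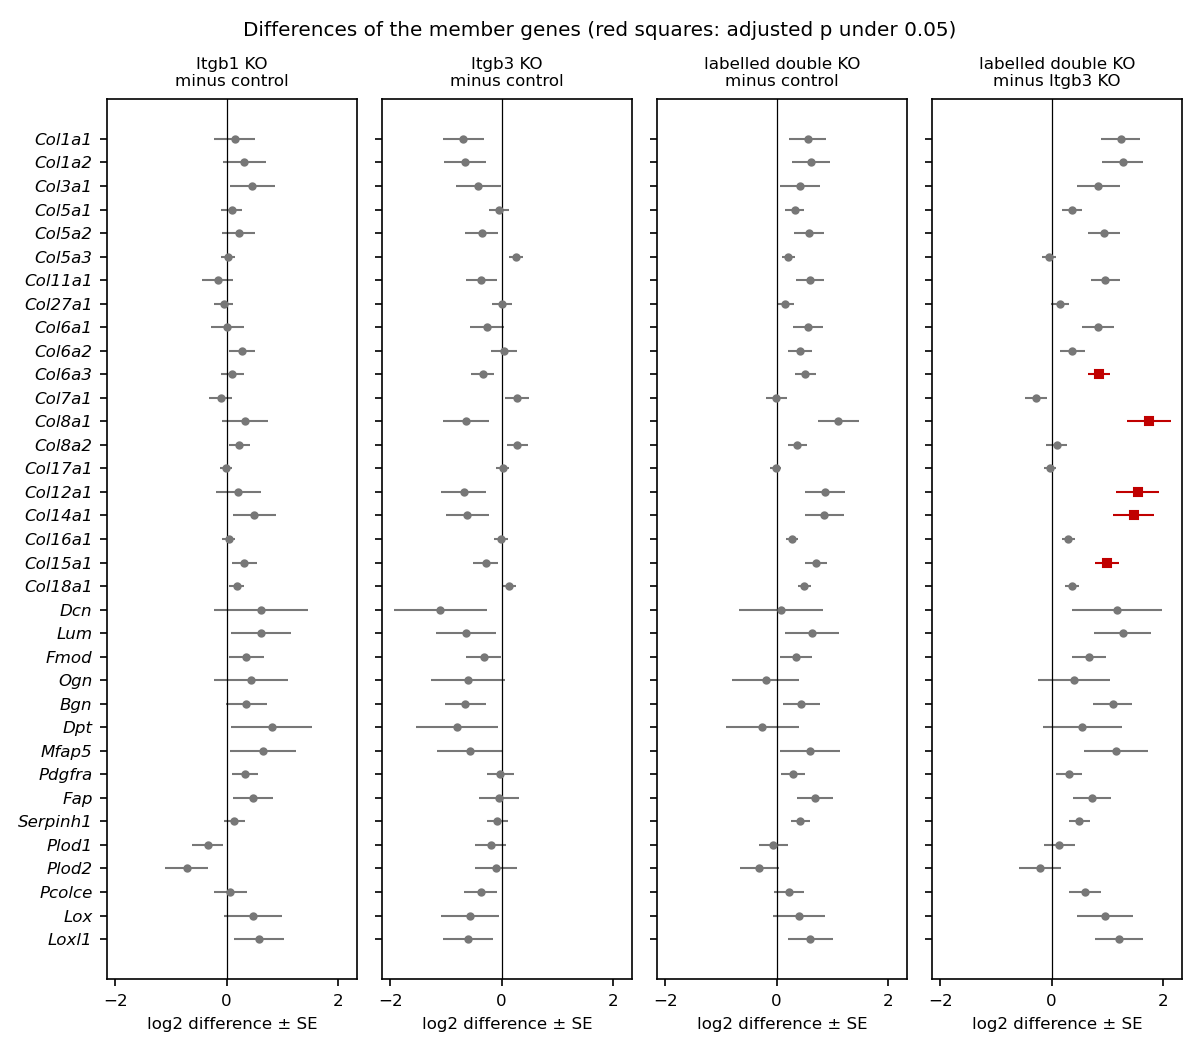
Log2 difference ± SE of each of the 35 genes in 4 comparisons, from 1 limma fit over 19 tumours. Red squares mark an adjusted p under 0.05, and the 5 that passed (Col6a3, Col8a1, Col12a1, Col14a1 and Col15a1) all lie in the panel of labelled double knockout against Itgb3 knockout.

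Of the 5 fibril-associated or multiplexin collagens, Col15a1 encodes collagen XV, a bridging collagen next to basement membranes. It was at 5.21, 5.33, 5.39, 5.81 and 5.91 in controls, 5.53, 5.77, 5.77 and 6.32 in Itgb1 knockout tumours, 4.77, 5.21, 5.33 and 5.66 in Itgb3 knockout tumours, and from 5.57 (median 6.24) to 6.69 in the tumours labelled double knockout. In 5 of those 6 tumours Col15a1 was above every Itgb3 knockout tumour, and replicate 5 alone overlapped. The other genes that passed had this pattern with the same exception, and so did some that did not pass, such as Col5a2 and Col6a1. The genes that passed were chosen by the test between these same groups. The share of all genes with this pattern is not given, here or below. The Col15a1 difference was 0.99 (SE 0.214, 1.99-fold, adjusted p = 0.0223 in limma). Against controls it was 0.70 (SE 0.201, adjusted p = 0.105 in limma), again with 5 of 6 above all controls.

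Col12a1, whose product decorates the surface of collagen I fibrils, was at 6.70, 6.90, 6.91, 7.01 and 7.52 in controls, 7.08, 7.13, 7.17 and 7.50 in Itgb1 knockout tumours, 5.24, 6.43, 6.60 and 7.06 in Itgb3 knockout tumours, and from 6.43 (median 7.90) to 8.87 in the tumours labelled double knockout. The lowest of the last group lay inside the Itgb3 knockout range and the other 5 lay above it. Col12a1 was higher by 1.55 (SE 0.386, 2.92-fold, adjusted p = 0.0381 in limma).

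Col14a1, which encodes a related fibril-associated collagen of dense connective tissue, was at 4.83, 5.18, 5.56, 5.90 and 5.94 in controls, 5.56, 6.10, 6.11 and 6.16 in Itgb1 knockout tumours, 3.64, 4.74, 4.9997 and 6.10 in Itgb3 knockout tumours, and from 5.24 (median 6.49) to 6.96 in the tumours labelled double knockout. The 5 upper tumours of the last group stood above all Itgb3 knockout tumours. The Col14a1 difference was 1.47 (SE 0.368, 2.77-fold, adjusted p = 0.0381 in limma).

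Col18a1, the source of the fragment endostatin, had the smallest p of the 35 genes against controls. It was at 4.81, 4.98, 5.35, 5.37 and 5.40 in controls, 5.17, 5.40, 5.43 and 5.44 in Itgb1 knockout tumours, 5.09, 5.31, 5.41 and 5.45 in Itgb3 knockout tumours, and from 5.44 (median 5.72) to 5.81 in the tumours labelled double knockout. All 6 of the latter lay above all 5 controls, with a difference of 0.50 (SE 0.120, 1.41-fold, adjusted p = 0.0696 in limma), which does not pass. Col16a1, a fibril-associated collagen, differed by 0.28 (SE 0.109, adjusted p = 0.200 in limma).

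Among collagen VI chains, which form beaded microfilaments around cells, Col6a3 passed. It was at 5.84, 5.89, 6.09, 6.36 and 6.41 in controls, 6.01, 6.08, 6.25 and 6.55 in Itgb1 knockout tumours, 5.22, 5.75, 5.82 and 6.32 in Itgb3 knockout tumours, and from 6.07 (median 6.72) to 6.99 in the tumours labelled double knockout. Of these 6 tumours, 5 were above all Itgb3 knockout tumours. Col6a3 was higher by 0.86 (SE 0.198, 1.81-fold, adjusted p = 0.0297 in limma). The partner chains Col6a1 and Col6a2 differed by 0.83 (SE 0.289) and 0.37 (SE 0.227), with adjusted p-values of 0.112 and 0.362 in limma.

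Col8a1, a chain of the hexagonal network collagen of vessel walls and remodelling tissue, showed the greatest difference among the 35 genes. It was at 6.31, 6.37, 6.71, 6.87 and 7.30 in controls, 6.95, 7.003, 7.07 and 7.16 in Itgb1 knockout tumours, 4.58, 6.23, 6.54 and 6.92 in Itgb3 knockout tumours, and from 6.45 (median 7.99) to 8.74 in the tumours labelled double knockout. Apart from replicate 5, the latter were above every tumour of all other groups. The difference from Itgb3 knockout tumours was 1.74 (SE 0.392, 3.35-fold, adjusted p = 0.0276 in limma) and that from controls 1.10 (SE 0.368, adjusted p = 0.148 in limma). The partner chain Col8a2 differed from Itgb3 knockout tumours by 0.09 (SE 0.184), the hemidesmosomal collagen Col17a1 by -0.03 (SE 0.107) and the anchoring fibril collagen Col7a1 by -0.28 (SE 0.201).

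**Figure D2:**
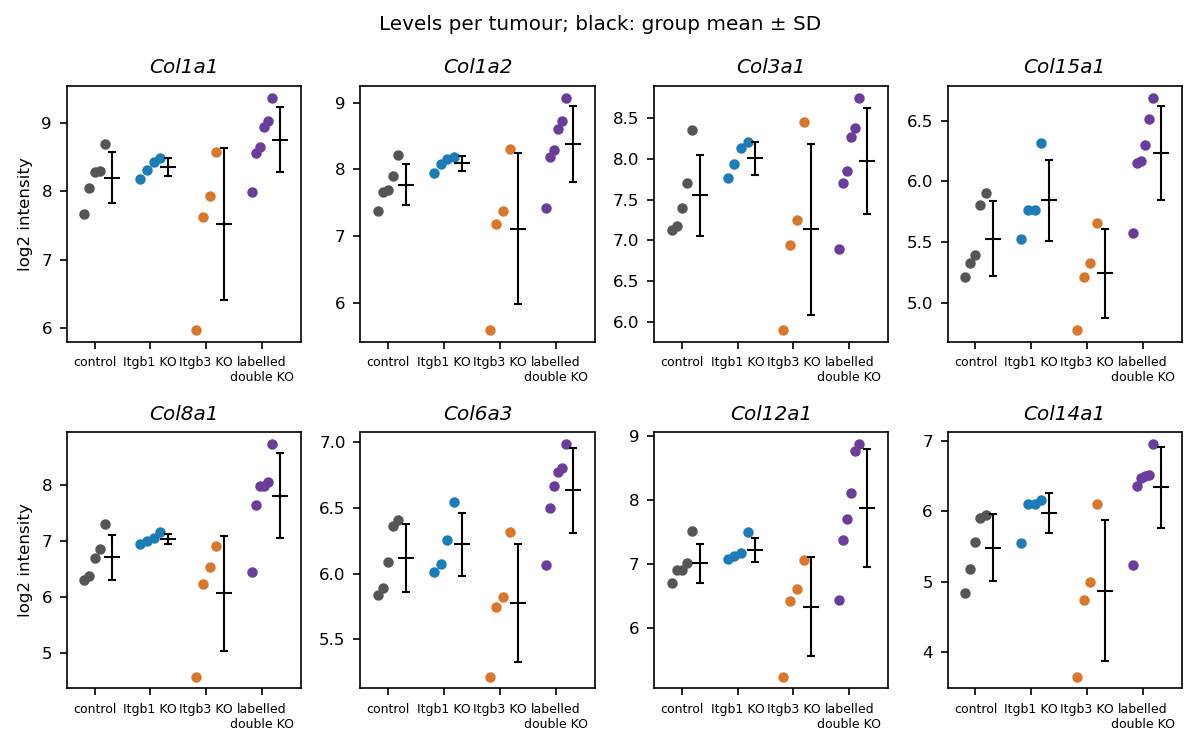
Log2 intensity of 8 genes in each tumour (points) with the mean ± SD of each group (black); each panel has its own vertical scale. In Col15a1, Col8a1, Col6a3, Col12a1 and Col14a1, 5 of the 6 labelled double knockout tumours stand above the 4 Itgb3 knockout tumours. These genes were chosen by the test between the same groups, and replicate 5 is the exception in each. The share of all genes with this pattern is not given. A single Itgb3 knockout tumour lies far below the others in Col1a1, Col1a2, Col8a1 and Col12a1.

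None of the 8 fibrillar collagens passed in any comparison. Col1a1, a chain of collagen I, was at 7.67, 8.06, 8.29, 8.31 and 8.70 in controls, 8.18, 8.31, 8.44 and 8.48 in Itgb1 knockout tumours, 5.96, 7.62, 7.92 and 8.57 in Itgb3 knockout tumours, and from 7.99 (median 8.80) to 9.38 in the tumours labelled double knockout. All groups overlapped with controls. Its differences from controls were 0.15 (SE 0.368, 95% interval -0.62 to 0.92) in Itgb1 knockout tumours, -0.68 (SE 0.368) in Itgb3 knockout tumours and 0.56 (SE 0.332) in the tumours labelled double knockout. Between the last and the Itgb3 knockout tumours the difference was 1.24 (SE 0.354, adjusted p = 0.0598 in limma). Without Itgb3 knockout replicate 2 the Itgb3 knockout difference from controls was -0.17 and this last difference 0.72.

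Col1a2, the other chain of collagen I, was at 7.38, 7.67, 7.69, 7.89 and 8.22 in controls, 7.94, 8.08, 8.15 and 8.18 in Itgb1 knockout tumours, 5.59, 7.17, 7.37 and 8.30 in Itgb3 knockout tumours, and from 7.42 (median 8.44) to 9.07 in the tumours labelled double knockout. The difference between the last groups was 1.27 (SE 0.367, adjusted p = 0.0621 in limma), and 0.77 without Itgb3 knockout replicate 2. Col3a1, which forms finer fibres, was at 7.13, 7.18, 7.40, 7.70 and 8.35 in controls, 7.76, 7.94, 8.14 and 8.20 in Itgb1 knockout tumours, 5.89, 6.95, 7.25 and 8.45 in Itgb3 knockout tumours, and from 6.89 (median 8.06) to 8.75 in the tumours labelled double knockout. For both genes an Itgb3 knockout tumour was the lowest of all 19, and another lay above all controls and all Itgb1 knockout tumours.

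Among the minor fibrillar collagens, Col11a1, a nucleator of thin fibrils, was nearest the threshold, with 0.96 (SE 0.264, adjusted p = 0.0522 in limma) between labelled double knockout and Itgb3 knockout tumours. Col5a3, a chain of collagen V, had the smallest p of the 35 genes between Itgb3 knockout tumours and controls. It was at 5.46, 5.47, 5.79, 5.82 and 5.85 in controls, 5.55, 5.64, 5.66 and 5.95 in Itgb1 knockout tumours, 5.67, 5.95, 6.05 and 6.07 in Itgb3 knockout tumours, and from 5.61 (median 5.94) to 6.01 in the tumours labelled double knockout. The difference of 0.26 (SE 0.125, adjusted p = 0.808 in limma) was opposite in sign to that of Col1a1.

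Several of the 7 small proteoglycans and fibril-associated proteins varied widely within groups. Decorin (Dcn), which binds collagen I and limits fibril width, spanned 3.46 to 9.01 in Itgb3 knockout tumours, 5.16 to 8.82 in the tumours labelled double knockout, 6.89 to 8.91 in controls and 7.76 to 9.05 in Itgb1 knockout tumours. Its residual SD within groups was 1.39, beside a median of 0.24 over all genes tested, and those of Dpt, Ogn and Mfap5 were 1.21, 1.10 and 0.99. With this spread none of the 7 passed, although all 7 were above 0 in Itgb1 knockout tumours (median 0.62) and below 0 in Itgb3 knockout tumours (median -0.63). Without Itgb3 knockout replicate 2 the Itgb3 knockout differences of Ogn and Mfap5 were 0.12 and 0.13 instead of -0.59 and -0.57, and that of Dcn was near 0 instead of -1.10.

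Biglycan (Bgn), a relative of decorin, had one of the smallest p-values between Itgb3 knockout tumours and controls. It was at 10.82, 11.003, 11.16, 11.23 and 11.35 in controls, 11.25, 11.51, 11.52 and 11.58 in Itgb1 knockout tumours, 8.93, 10.69, 10.83 and 11.40 in Itgb3 knockout tumours, and from 10.50 (median 11.67) to 12.16 in the tumours labelled double knockout. The Itgb3 knockout difference was -0.65 (SE 0.369, adjusted p = 0.839 in limma), and -0.14 without replicate 2. Lumican (Lum), another proteoglycan that spaces fibrils, differed by 1.27 (SE 0.520, adjusted p = 0.171 in limma) between labelled double knockout and Itgb3 knockout tumours, and by 0.79 without Itgb3 knockout replicate 2.

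The fibroblast surface proteins were Pdgfra, a growth factor receptor, and Fap, a protease of activated fibroblasts. Pdgfra was at 5.72, 6.13, 6.15, 6.25 and 6.28 in controls, 6.10, 6.42, 6.42 and 6.80 in Itgb1 knockout tumours, 5.48, 5.98, 6.43 and 6.45 in Itgb3 knockout tumours, and from 5.93 (median 6.26) to 6.96 in the tumours labelled double knockout. Its groups overlapped in every comparison, with 0.33 (SE 0.239, adjusted p = 0.982 in limma) between Itgb1 knockout tumours and controls. Fap differed from controls by 0.68 (SE 0.322, adjusted p = 0.289 in limma) in the tumours labelled double knockout.

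Of the 6 processing genes none passed. Plod2, a lysyl hydroxylase that sets the type of cross-link, had the smallest p of the 35 genes between Itgb1 knockout tumours and controls. It was at 6.85, 7.30, 8.42, 8.59 and 8.75 in controls, 6.59, 7.30, 7.58 and 7.59 in Itgb1 knockout tumours, 7.65, 7.70, 7.99 and 8.17 in Itgb3 knockout tumours, and from 6.55 (median 7.67) to 8.36 in the tumours labelled double knockout. The difference was -0.71 (SE 0.385, adjusted p = 0.982 in limma). Serpinh1, the collagen chaperone, was at 8.06 to 8.37 in controls and at 8.39 to 8.80 in the tumours labelled double knockout. Those ranges did not overlap, but the difference of 0.42 (SE 0.172, adjusted p = 0.224 in limma) did not pass. Col18a1 and Serpinh1 were 2 of 35 genes (5.71%) with such a separation, against 1.19% of all genes. In either direction, 0 of the 35 separated fully between labelled double knockout and Itgb3 knockout tumours, where the calls were made. The same held between each single knockout group and controls. The shares of all genes for those comparisons are not given.

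Between the remaining pairs of groups no gene of the 35 passed. Between labelled double knockout and Itgb1 knockout tumours, where 0.0211% of all genes were called, the median difference was 0.21. It was 0.11 without labelled double knockout replicate 2, 0.31 without its replicate 5 and 0.13 without Itgb1 knockout replicate 3. The smallest adjusted p was 0.247 (limma) for Col11a1, with a difference of 0.76 (SE 0.264). Col11a1 and Col18a1 were 2 of 35 genes (5.71%) that lay above all Itgb1 knockout tumours in all 6 labelled double knockout tumours, against 1.57% of all genes. Between Itgb3 and Itgb1 knockout tumours, where 0% were called, the median was -0.51 and 28 of 35 were below 0; without Itgb3 knockout replicate 2 these were -0.32 and 24. Col8a1 and Col12a1 were lower in all 4 Itgb3 knockout tumours than in all 4 Itgb1 knockout tumours, against 2.47% of all genes with that separation, and Col7a1 and Plod2 higher, against 1.4%. The interaction, which compares labelled double knockout with the sum of both single knockouts, called 0% of all genes and had a median of 0.48 over the 35, which dropped to 0.30 on leaving out control replicate 4 and to 0.18 on leaving out Itgb3 knockout replicate 2. In these 3 comparisons 3, 9 and 6 of the 35 had an unadjusted p under 0.05, against 1744, 647 and 1777 of all genes.

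**Figure D3:**
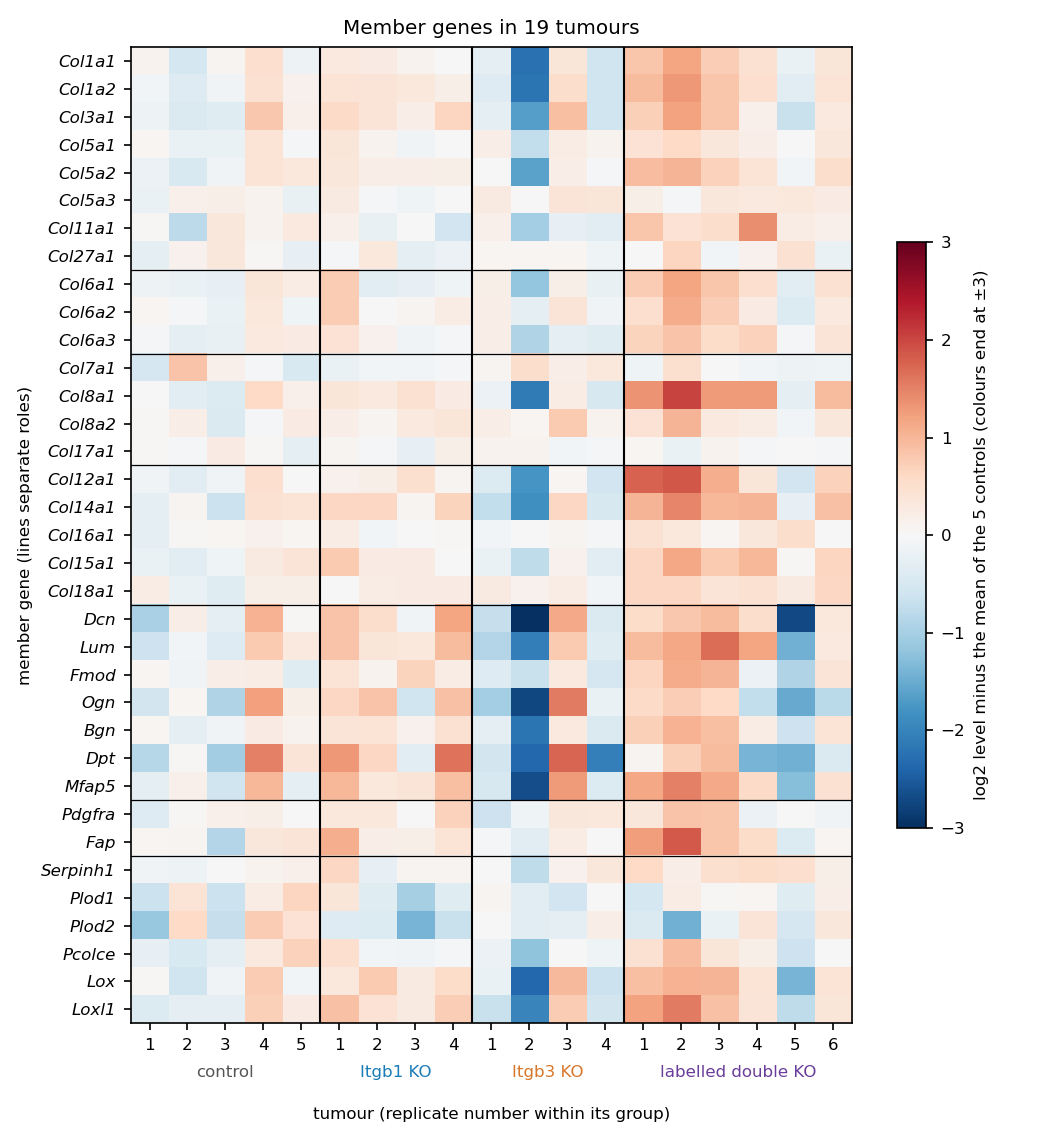
Log2 level of each gene in each of 19 tumours, relative to the mean of the 5 controls; horizontal lines separate roles, vertical lines groups, and the colours end at ±3. Itgb3 knockout replicate 2 is lowest for 22 of the 35 genes and labelled double knockout replicate 2 is highest for 22.

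Tumours of 1 group differed widely. Itgb3 knockout replicate 2 was the lowest of 19 tumours for 22 of the 35 genes (62.9%, against 5.05% of all genes), and labelled double knockout replicate 2 was the highest for 22 (62.9%, against 8.03%). The mean over the 35 genes, relative to the control mean, was -0.23 to 0.44 in controls and 0.01 to 0.45 in Itgb1 knockout tumours. It was -1.20, -0.26, -0.19 and 0.39 in Itgb3 knockout tumours, and ran from -0.43 (median 0.48) to 0.87 in the tumours labelled double knockout. The lowest of the latter, replicate 5, was low mainly in the proteoglycans and associated proteins, whose mean was -1.41, while its fibrillar collagens were at -0.04. In Itgb3 knockout replicate 2 the same means were -2.44 and -1.17. The median residual SD was 0.49 over the 35 genes and 0.24 over all genes tested, and 20 of the 35 exceeded the 90th percentile of all genes.

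Most of the 35 genes varied together from tumour to tumour. With group means removed, over 19 tumours that share their arrays across all genes, 13 of 34 genes had a Pearson correlation with Col1a1 above 0.8, against 0.281% of all genes, and the median was 0.73 against -0.02. The genes most like it were Col1a2 (0.978), Bgn (0.947), Lox (0.933), Col5a2 (0.929) and Col8a1 (0.920). Lox is a lysyl oxidase that cross-links collagen, and Col5a2 is a collagen V chain of collagen I fibrils. The 2 tumours farthest from the median of Col1a1, after removal of group means and not in level, were Itgb3 knockout replicates 2 and 3. Leaving them out gave 0.942, 0.866, 0.875, 0.863 and 0.874 for the genes most like Col1a1, in the order above. Dcn went from 0.852 to 0.642 and Serpinh1 from 0.515 to 0.0614. Without those 2 tumours 8 of 34 genes were above 0.8, against 0.155% of all genes, and the median was 0.64 against -0.04. The group means removed were those of all 19 tumours here too, so the 2 left out still shaped the Itgb3 knockout mean. Col7a1 (-0.203), Col17a1 (-0.145), Plod2 (-0.105), Col16a1 (-0.0334) and Plod1 (-0.0129) lay below 0. Col7a1 and Col17a1 are known as products of epithelial cells at the basement membrane, so the label of fibroblast products does not cover them.

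**Figure D4:**
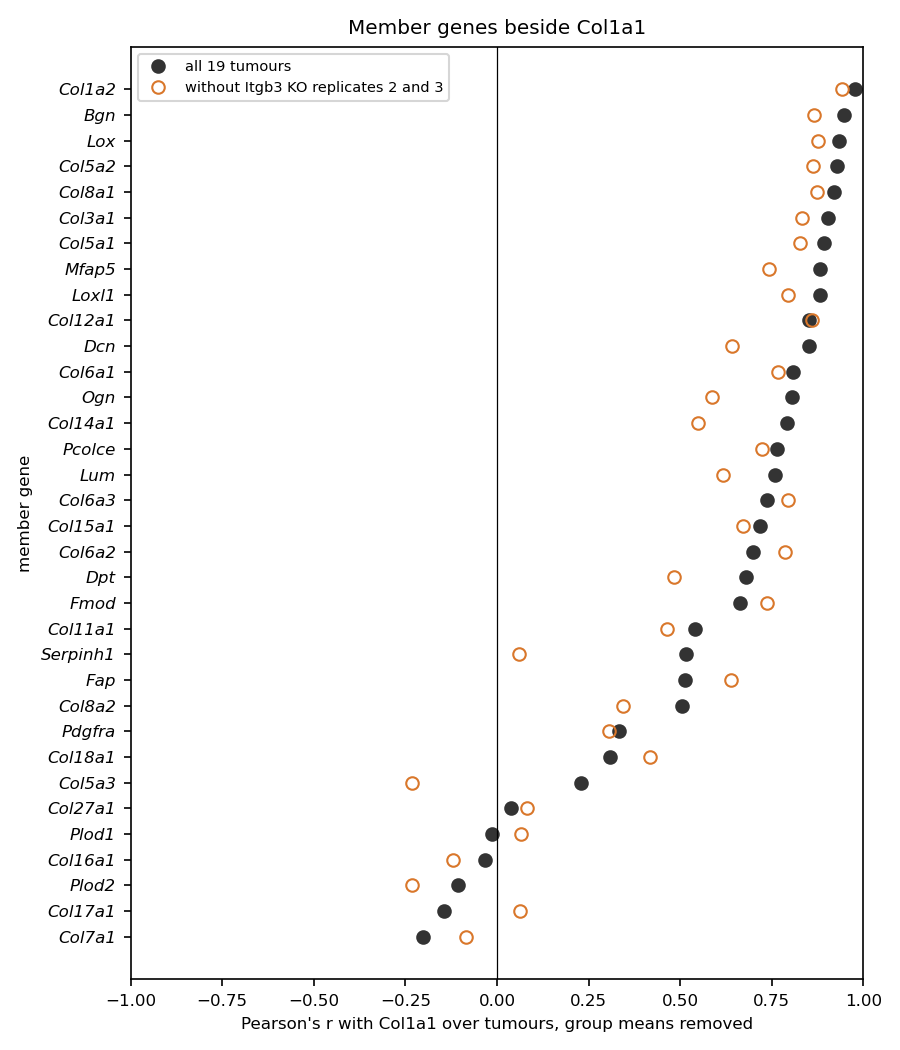
Pearson correlation of 34 genes with Col1a1 over tumours after removal of group means, with all 19 tumours (filled) and without Itgb3 knockout replicates 2 and 3 (open). The group means were those of all 19 tumours in both. Col1a2, Bgn and Lox are at the top and 5 genes lie below 0 with all tumours.

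Other genes of collagen biology were compared from lists. Among 12 collagen receptors and uptake genes, Itga2, a collagen-binding integrin subunit that pairs with Itgb1, was higher in the tumours labelled double knockout than in controls (0.93, SE 0.175, adjusted p = 0.0279) and than in Itgb3 knockout tumours (0.93, SE 0.187, adjusted p = 0.0163, both limma). Mmp14, a membrane-bound collagenase, was higher than in Itgb3 knockout tumours by 1.18 (SE 0.273, adjusted p = 0.0296 in limma), and all 12 differences were above 0 there. In the same comparison, of 16 other collagens only the basement membrane chain Col4a2 passed (0.98, SE 0.194, adjusted p = 0.0163 in limma), and 10 of the 16 were below 0. None of 25 further collagen biosynthesis genes passed. The smallest adjusted p was that of Bmp1, the procollagen C-proteinase, which differed by 0.91 (SE 0.244, adjusted p = 0.0504 in limma). Of 5 other leucine-rich proteoglycans Prelp passed, higher by 1.24 (SE 0.307, adjusted p = 0.0375 in limma).

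Marker lists of other cell types were counted in the same comparison, where 2.38% of all genes were called higher and 54.7% lay above 0. Of 19 other fibroblast markers the transcription factor Meox1 was higher in labelled double knockout than in Itgb3 knockout tumours (0.93, SE 0.243, adjusted p = 0.0459 in limma), and 16 of 19 were above 0 with a median of 0.55. Of 12 macrophage markers Adgre1, Cd14 and Csf1r were higher by 0.98, 1.19 and 0.98 (adjusted p = 0.0163, 0.0182 and 0.0341 in limma), and all 12 were above 0. None of 11 pericyte and smooth muscle markers, 14 endothelial markers, 14 epithelial markers, 8 adipocyte markers, 9 skeletal muscle markers, 4 basal markers or 3 cartilage and bone markers passed. The medians of the first 3 of these lists were 0.42, 0.29 and 0.26.

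The mean of the fibroblast markers relative to controls ran from -0.69 to 0.23 in Itgb3 knockout tumours and from -0.24 to 0.61 in the tumours labelled double knockout, and within these groups it was lowest in Itgb3 knockout replicate 2 and labelled double knockout replicate 5, which were also the lowest of their groups in the 35 genes. Controls ran from -0.32 to 0.33 and Itgb1 knockout tumours from -0.24 to 0.25. The pericyte and smooth muscle mean ran from -0.29 to 0.03 in Itgb3 knockout tumours and from 0.15 to 0.70 in the tumours labelled double knockout, with no overlap. It ran from -0.145 to 0.296 in controls and from -0.200 to 0.336 in Itgb1 knockout tumours, and both ranges overlapped that of the labelled double knockout. For the next 3 lists, Itgb3 knockout tumours are given first and the tumours labelled double knockout second. The macrophage mean ran from -0.29 to 0.10 and from -0.18 to 0.72, the endothelial mean from -0.12 to 0.07 and from -0.04 to 0.54, and the epithelial mean from -0.10 to 0.17 and from -0.03 to 0.42. Their part in the differences of the 35 genes was not tested.

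**Figure D5:**
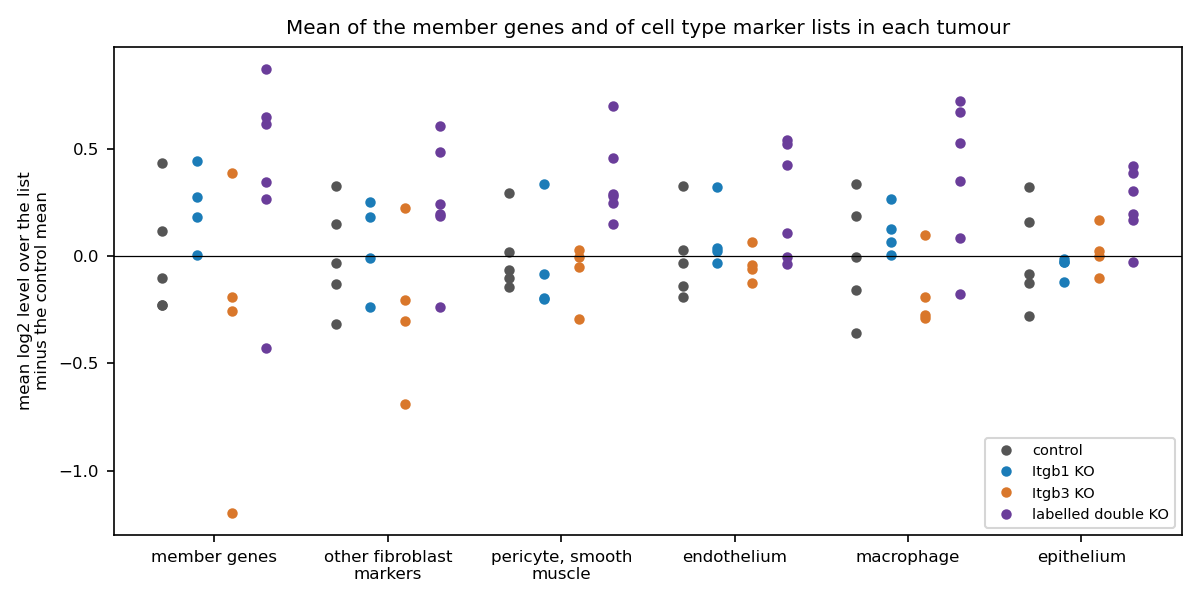
Mean log2 level over the 35 genes and over each marker list in each tumour, relative to the mean of the 5 controls (line at 0). A single Itgb3 knockout tumour is at -1.20 for the 35 genes, and the 6 labelled double knockout tumours are all above 0 for pericyte and smooth muscle markers. The highest tumour of each other group is also above 0 for those markers.

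A second probe set was available for Col1a2, Col5a1, Col6a1, Fmod and Bgn. It correlated with the set used at 0.931, 0.743 and 0.888 for Col1a2, Col6a1 and Bgn. For Fmod, a proteoglycan that binds collagen I, it correlated at 0.548, with a difference of 0.25 in place of 0.67 between labelled double knockout and Itgb3 knockout tumours. For Col5a1, a main chain of collagen V, it correlated at -0.111 and had a mean of 4.03, under the filter of 4.38.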

How the data were processed

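The deposited values are normalized log2 intensities, which the authors made with Affymetrix Expression Console, per the submitters' processing notes. Its version and background correction are not stated. The arrays were labelled from 100 ng of total RNA, per the labels' protocols. Of 41345 probe sets, 23521 had 1 gene symbol, 1814 several and 16010 none. The deposited values were used as they stood. Genes at or above 4.38, the table median, on at least 4 arrays were tested, with the probe set of highest mean per gene. limma 3.58.1 in R 4.3.3 (lmFit, eBayes) fitted 1 mean per group over 19 arrays, for 7 comparisons, two-sided, with Benjamini-Hochberg adjustment over 14231 genes and a threshold of 0.05. The steps were tested on simulated data. No array was a copy of another (highest pair correlation 0.984).

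Values in each tumour (for the group of 6, the lowest, median and highest) are given for Col1a1, Col1a2, Col3a1, the genes that passed and the 3 with the smallest p in each comparison with controls; from other lists, those that passed and up to 4 with the smallest p. The values of other genes were chosen after they were seen. The genes and lists were chosen with earlier results of these data known. Alternatives covered the filter, centring, quantile normalization, probe set choice, groups fitted, array weights, eBayes options, a floor and each tumour left out. Arrays have no read depth. No batch was given.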

Additional observations from a re-analysis of the deposited data

Results flagged for a closer look

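In 17 of 140 combinations of gene and group, 1 tumour stood apart from the others of its group by a gap above Dixon's 95% critical value, where chance gives nominally about 1 in 20. The combinations are not independent, because most of these genes varied together, and no share over all genes is given. The 17 therefore do not show that such gaps are more frequent here than in other genes. All are log2 intensities, given with that of the nearest tumour. Itgb3 knockout replicate 2 was low for Col5a1 at 5.47 (nearest 6.31), Col5a2 at 4.69 (nearest 6.27) and Pcolce at 5.25 (nearest 6.29). Itgb3 knockout replicate 4 was low for Col27a1 at 5.57 (nearest 5.73), where the other 3 tumours carry one identical value, so that the gap equals the whole range whatever the fourth is. Labelled double knockout replicate 5 was low for Col14a1 at 5.24 (nearest 6.37), Dcn at 5.16 (nearest 8.18) and Lox at 5.60 (nearest 7.39), and replicate 2 was high for Col7a1 at 5.99 (nearest 5.50).

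Itgb1 knockout replicate 1 was high for Col5a2 at 6.63 (nearest 6.48), Col6a1 at 8.09 (nearest 7.18) and Pcolce at 6.97 (nearest 6.40), and low for Col18a1 at 5.17 (nearest 5.40). For Col5a2, Itgb1 knockout replicates 2 and 3 carry an identical value. Itgb1 knockout replicate 3 was low for Col14a1 at 5.56 (nearest 6.10). Among controls, replicate 2 was low for Col11a1 at 8.001 (nearest 8.81), replicate 1 for Col16a1 at 5.61 (nearest 5.93) and for Pdgfra at 5.72 (nearest 6.13), and replicate 3 for Fap at 4.21 (nearest 5.16).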

How the results depend on the processing

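No count or median reversed, nor did the genes given with their values in every tumour in the comparison each was selected for; other differences changed sign, as the counts of genes that kept theirs show. The count between labelled double knockout and Itgb3 knockout tumours was 5 and became 13 with centred arrays, 11 with array weights and 1 with only the groups compared. Leaving out each tumour in turn gave 0 to 14. It was 5 with both low tumours (Itgb3 knockout replicate 2 and labelled double knockout replicate 5) left out, an alternative chosen after seeing the data. Between labelled double knockout and controls the count of 0 became 1 (Col18a1) with centred arrays, 0 to 2 leaving out each tumour, and 4 (Col5a2, Col8a1, Col12a1 and Col15a1) without both low tumours. In the other 5 comparisons it was 0 under every alternative run. Centring moved the median of all genes between labelled double knockout and Itgb3 knockout tumours from 0.03 to 0.14, the calls from 408 to 1220, and the share called higher from 82.8% to 95.7%; against controls the calls went from 55 to 100 and the share from 76.4% to 87.0%. Array medians did not overlap between labelled double knockout and Itgb3 knockout tumours, as given above. The cause was not tested. Over the alternatives 30 of 35 genes kept 1 sign between labelled double knockout and Itgb3 knockout tumours, 29 between labelled double knockout and controls, 26 between Itgb1 knockout and controls and 20 between Itgb3 knockout and controls. No paired analysis was possible because the labels give no number that ties tumours of separate groups. Signal over background limits Col8a2 and Lum, each under the filter on 3 arrays. Col14a1, which passed, was under the filter in Itgb3 knockout replicate 2 (3.64), as were Dcn, Ogn and Dpt.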

Other observations

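Several genes outside the collagens and fibroblast products above stood apart without passing. Col10a1, a collagen known from hypertrophic cartilage and from activated tumour fibroblasts, had mean log2 levels of 4.60 in controls, 6.04 in Itgb1 knockout tumours, 4.82 in Itgb3 knockout tumours and 6.57 in the tumours labelled double knockout. All 4 Itgb1 knockout tumours were above all controls (1.44, SE 0.557, adjusted p = 0.982 in limma), as were 5 of the 6 labelled double knockout tumours (1.97, SE 0.503, adjusted p = 0.0760 in limma). The shares of all genes with these patterns are not given. Thy1, a surface marker of fibroblasts, was above all controls in 6 of 6 labelled double knockout tumours (1.03, SE 0.225, adjusted p = 0.0527 in limma). That separation was found in 1.19% of all genes. Fn1, the adhesive matrix protein fibronectin, differed by 1.90 (SE 0.523, adjusted p = 0.0541 in limma) between labelled double knockout and Itgb3 knockout tumours.

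The mean of 9 skeletal muscle genes ranged from -0.70 to 2.06 in controls, -0.55 to 1.40 in Itgb1 knockout tumours, -0.38 to 1.27 in Itgb3 knockout tumours and -0.61 to 1.98 in the tumours labelled double knockout, relative to the control mean. None of the 9 passed in any comparison.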
